A study of Mus musculus with 12 samples.

Results

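The IL-6 family genes described here are Il6, Lif, Il11 and Clcf1 for the ligands, Il6st, Lifr and Osmr for the receptor chains, and Stat3 and Socs3 for the signal inside the cell. They were chosen by name as ligands, receptors and STAT3 feedback of this family, are 9 of the 55487 genes listed in the counts, and all 9 were among the 14175 genes with enough counts to be tested. They were measured by RNA sequencing in C2C12 myotubes, a mouse myoblast line that fuses into multinucleated fibers when serum is lowered. All libraries came from myotubes formed over 5 days in DMEM with 2% horse serum and penicillin/streptomycin. For the last 24 h the medium held either 4% horse serum (libraries 1 to 6) or 4% STEM (libraries 7 to 12). STEM is a cell-free product made from what human embryonic stem cells release once they have partly differentiated. STEM replaced the horse serum, so the addition of STEM and the removal of horse serum cannot be told apart. A single cell line was used, and the labels do not say whether the 6 libraries of a group came from separate cultures. The study's methods describe RNA taken well by well from culture plates, without tying wells to libraries, so p-values measure the spread between these libraries, which may be technical. Total counts were between 13285472 and 18254882 per horse serum library and between 14909485 and 24536264 per STEM library.

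Cytokines of the IL-6 family share gp130, the receptor chain encoded by Il6st. IL-6 and IL-11 bind first to their own alpha receptors and then bring gp130 together, whereas LIF signals through gp130 paired with the LIF receptor, CLCF1 through the same pair after binding the alpha receptor CNTFR, and oncostatin M through gp130 paired with its own receptor chain. The receptors carry JAK kinases that phosphorylate STAT3, which enters the nucleus and induces, among other genes, Socs3, whose product binds gp130 and shuts the signal down. In skeletal muscle IL-6 is known as a cytokine released by contracting fibers, and LIF is known to promote the proliferation of myoblasts.

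Il6 and Lif had the largest fold changes of the 9 genes, so the promoters of both are shown, from RefSeq on GRCm38.p6. The Il6 sequence covers chr5:30012864-30013113 and the Lif sequence chr11:4257318-4257556, both on the plus strand, and each ends at the base before the annotated gene. Capitals mark matches on either strand to the AP-1 motif TGANTCA and the NF-kB consensus, which did not overlap each other here.
Il6: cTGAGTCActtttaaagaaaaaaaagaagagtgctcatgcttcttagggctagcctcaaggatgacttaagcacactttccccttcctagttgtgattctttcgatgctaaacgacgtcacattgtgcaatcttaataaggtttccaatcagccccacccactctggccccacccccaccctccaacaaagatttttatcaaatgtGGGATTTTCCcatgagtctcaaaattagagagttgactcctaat
Lif: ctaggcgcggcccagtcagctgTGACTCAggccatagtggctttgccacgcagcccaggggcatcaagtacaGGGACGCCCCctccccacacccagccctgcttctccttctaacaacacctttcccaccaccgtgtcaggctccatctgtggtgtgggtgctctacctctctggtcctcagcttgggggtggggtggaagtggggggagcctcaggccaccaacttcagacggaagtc
The Il6 promoter held an AP-1 match at -249 to -243 from the RefSeq start and an NF-kB match at -44 to -35. The Lif promoter likewise held 1 match to AP-1, at -228 to -222, and 1 to NF-kB, at -178 to -169. Of all 32851 RefSeq windows from 250 bases before to 50 bases after a start, 7.81% held the AP-1 motif and 8.46% the NF-kB consensus. The STAT motif TTCNNNGAA stood in 8.3% of all windows and, among the 8 members with a window, in that of Socs3 only, at -154 to -146. That Socs3 window (chr11:117969317-117969616, minus strand) lies inside the gene as GENCODE annotates it, from 117966079 to 117970047. A window of Il11 and that of Osmr held AP-1 matches too, and those of Il6st, Lifr and Stat3 held no match to these letters.

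Horse serum library 6 stood apart from the other libraries of its group. On principal component 1 of the log2 CPM (44.2% of the variance) it lay at 11.2, while horse serum libraries 1 to 5 lay between -35.5 and -24.6 whereas STEM libraries reached from 15.5 to 28.6. On component 2 it lay at -53.3, with the other 11 libraries between 0.216 and 11.8. It was above each other horse serum library for 6 of the 9 members and below them for 1. Over all tested genes those shares were 35.8% and 33.1%, and no other horse serum library was above the rest for more than 18.5% of genes. The summed level of 10 myotube markers (most abundant, Acta1) was 7914 CPM in library 6, between 13680 and 14730 CPM in horse serum libraries 1 to 5, and between 11240 and 13820 CPM with STEM. The summed level of 6 markers of undifferentiated, dividing myoblasts was 946 CPM in library 6, between 626 and 864 CPM in the other horse serum libraries, and between 523 and 592 CPM with STEM, with Top2a the most abundant. These markers did not move together in library 6. Among the horse serum libraries it was highest for Mki67 (322 CPM) and Ccnb1 (114 CPM) and lowest for Pax7 (26.0 CPM) and Myf5 (15.9 CPM). For Top2a (386 CPM) and Myod1 (82.6 CPM) it lay within the range of the others. Of the 10 myotube markers, 1 was called higher and 2 lower with STEM, and without library 6 these numbers were 1 and 6. Of the 6 myoblast markers 3 were called, all lower, with or without library 6. Among all tested genes 36.4% were called in either direction at an adjusted p of 0.05 or less, and 50.8% without library 6. The part of these marker differences in the results below was not tested, and each member is given with and without library 6.

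**Figure D1:**
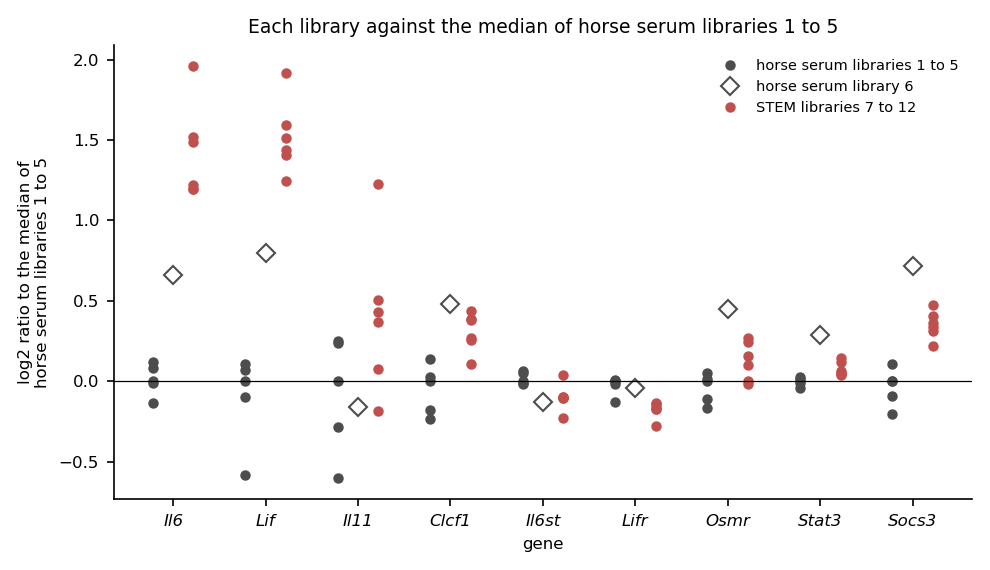
Each point is 1 library, and the y axis gives its log2 ratio to the median of horse serum libraries 1 to 5 for the gene on the x axis. Library 6 (open diamonds) lies above the other horse serum libraries (grey) for Il6, Lif, Clcf1, Osmr, Stat3 and Socs3, and above every STEM library (red) for Clcf1, Osmr, Stat3 and Socs3.

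The myotube identity of the cells was checked on all 10 markers, each of which was tested and none of which was at 0. Of 10 macrophage markers, 5 did not exceed 3 counts in any library, Adgre1 and Tyrobp were at 0, and the most abundant, Cd14, had 4.25 CPM after horse serum and 4.21 CPM after STEM. The summed macrophage markers were between 7.79 and 9.69 CPM per horse serum library and between 8.45 and 10.4 CPM per STEM library. Csf1r, of the same list and named after its values were seen, averaged 0.288 ± 0.198 CPM after horse serum and 0.917 ± 0.314 CPM after STEM (SD, n = 6 each), with at most 30 counts in a library. It had too few counts to be tested with all 12 libraries, and without library 6 it was called higher (log2 fold change 1.45, adjusted p = 0.00234 in edgeR), as 1 of 3 macrophage markers tested there. For 6 endothelial markers the sums were below 1.01 CPM in every library, led by Tek, with Kdr and Emcn at 0. Among 6 adipocyte markers, Plin1, Lep and Cidec were at 0 and Pparg, at 12.4 CPM after horse serum and 6.87 CPM after STEM, made up nearly all of the sums of 12.5 ± 1.87 CPM and 6.89 ± 0.514 CPM (SD, n = 6 each). Pparg was the only tested gene of that list and was called lower (log2 fold change -0.84). The part of these cell types in the results was not tested.

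With all 12 libraries, STEM-treated myotubes had higher Il6 and Lif and lower Lifr than horse serum myotubes, and the other 6 members did not pass the test. These 3 of 9 members stand beside 36.4% of all tested genes that were called in either direction at an adjusted p of 0.05 or less (18.9% higher and 17.4% lower with STEM), so the share of members called is near that of all genes. Without library 6, 7 of the 9 members were called, 5 higher (Il6, Lif, Clcf1, Osmr and Socs3) and 2 lower (Lifr and Il6st), beside 50.8% of all genes tested (26.3% higher and 24.5% lower). No overlap between horse serum and STEM libraries was found for 3 members, against 17.2% of all tested genes. Without library 6 this held for 5 members, against 33.3% of all genes. Since the libraries are bulk RNA, fewer cells with a transcript and less transcript per cell cannot be told apart.

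**Figure D2:**
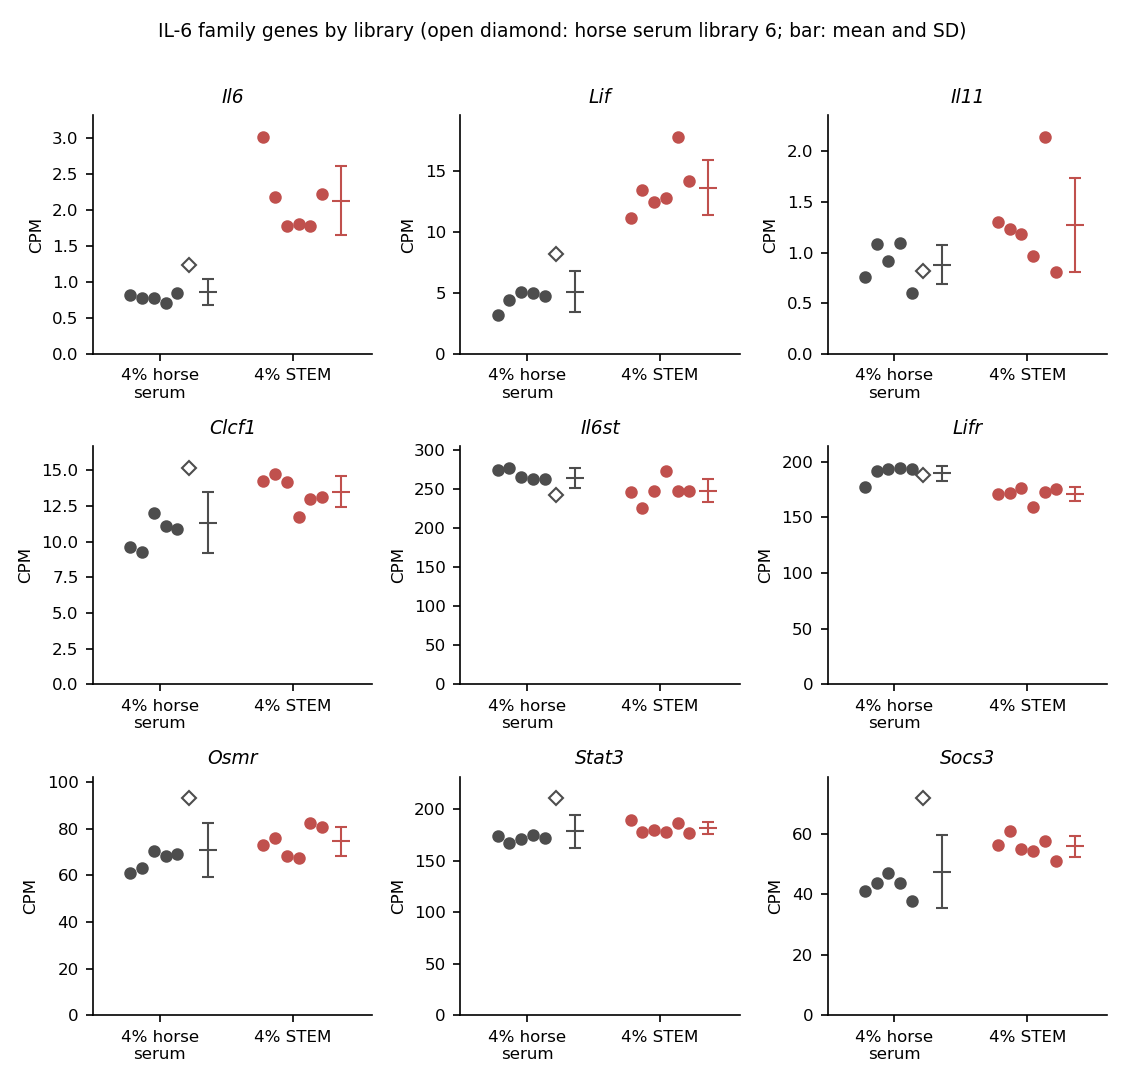
Each panel shows the CPM of 1 gene (y axis from 0) in the 6 libraries of each group, with the mean and SD at the right of each group and horse serum library 6 as an open diamond. The STEM libraries lie above all horse serum libraries for Il6 (lowest 1.78 CPM against a highest of 1.23) and Lif (11.2 against 8.20), and below them for Lifr (highest 176 CPM against a lowest of 177).

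Among the ligands, Lif, the cytokine that acts through the LIF receptor and gp130, and Il6 rose. Lif (ENSMUSG00000034394, chromosome 11, 4257557 to 4272514) was measured at 3.15, 4.40, 5.08, 4.95 and 4.71 CPM in horse serum libraries 1 to 5 and at 8.20 CPM in library 6. In the STEM libraries it was at 11.2, 13.4, 12.5, 12.8, 17.8 and 14.2 CPM. Every STEM library was above every horse serum library, and library 6 was nearer to the lowest STEM library than any other horse serum library was. The mean rose from 5.08 ± 1.68 CPM to 13.6 ± 2.28 CPM (SD, n = 6 each), a log2 fold change of 1.40 (SE, the standard error, 0.18) or 2.65-fold. Its adjusted p was 4.17e-05 in edgeR's quasi-likelihood test, adjusted by Benjamini-Hochberg over all tested genes. Without library 6 the log2 fold change was 1.61 (SE 0.13, adjusted p = 1.42e-08). The gene for oncostatin M, Osm, lies 16.5 kb from Lif and had no count in any library, with 3 counts equal to between 0.122 and 0.232 CPM depending on the library.

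Il6, the founding cytokine of the family, had few counts in both groups and rose 2.46-fold. Il6 (ENSMUSG00000025746, chromosome 5, 30013114 to 30019981) had 10 to 24 counts per horse serum library and 27 to 74 counts per STEM library. Its level was between 0.707 and 0.846 CPM in horse serum libraries 1 to 5, 1.23 CPM in library 6, and 3.02, 2.18, 1.78, 1.81, 1.78 and 2.22 CPM in STEM libraries 7 to 12. The groups did not overlap, and STEM library 7, the deepest, was highest. The mean was 0.859 ± 0.188 CPM after horse serum and 2.13 ± 0.481 CPM after STEM (SD, n = 6 each), a log2 fold change of 1.30 (SE 0.20, adjusted p = 0.000147 in edgeR). Without library 6 it was 1.46 (SE 0.21, adjusted p = 1.11e-05). For Il6 and for Lif the difference in mean log2 CPM between groups had the smallest p that 6 libraries against 6 allow (exact permutation test, two-sided, p = 0.00216).

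Il11 (ENSMUSG00000004371, chromosome 7, 4772373 to 4782859), a ligand with its own alpha receptor, had 10 to 35 counts per library. It ranged from 0.604 to 1.09 CPM with horse serum (median 0.869) and from 0.808 to 2.14 CPM with STEM (median 1.21). The groups overlapped, although 4 STEM libraries exceeded the highest horse serum value, and the highest of all stood in STEM library 11 alone. Its log2 fold change of 0.55 (SE 0.24) did not pass the test (adjusted p = 0.0894 in edgeR), and it was not called without library 6 (log2 fold change 0.54, adjusted p = 0.096). Without STEM library 11 the log2 fold change was 0.35 (adjusted p = 0.23). The approximate 95% interval of the log2 fold change, not adjusted for the number of genes, ran from 0.07 to 1.03.

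Clcf1 (ENSMUSG00000040663, chromosome 19, 4214238 to 4223490), a ligand that needs the alpha receptor CNTFR beside the LIF receptor and gp130, was called only when library 6 was left out. It was at 9.59, 9.26, 12, 11.1 and 10.9 CPM in horse serum libraries 1 to 5, at 15.2 CPM in library 6, and between 11.7 and 14.7 CPM with STEM (median 13.6). Library 6 was above every STEM library, whereas in horse serum libraries 1 to 5 only the highest reached into the STEM range. The log2 fold change was 0.25 (SE 0.11, adjusted p = 0.0908 in edgeR) with library 6 and 0.35 (SE 0.085, adjusted p = 0.00185) without it. Cntfr, the gene of that alpha receptor, did not exceed 2 counts in any library.

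Of 11 ligand genes of the family, 6 were tested and 4 of these were called, 2 higher and 2 lower (66.7% of those tested, beside 36.4% of all genes, with a median log2 fold change of 0.40 beside 0.01 for all genes). Without library 6, 3 were higher and 1 lower (66.7% of those tested), beside 50.8% of all genes (26.3% higher and 24.5% lower). The lower genes were Ctf1, which encodes cardiotrophin-1, and Cntf, which encodes ciliary neurotrophic factor. Ctf1 averaged 6.69 ± 0.601 CPM after horse serum and 5.43 ± 0.426 CPM after STEM (SD, n = 6 each, log2 fold change -0.30, adjusted p = 0.0187 in edgeR), without overlap of the groups. Its call was lost in edgeR without a filter on low counts (adjusted p = 0.0662), where 2 ligands were called. Cntf was at 1.24 ± 0.369 CPM and 0.789 ± 0.202 CPM (log2 fold change -0.66, adjusted p = 0.045), its groups overlapped, and it lost its call in 9 of the 12 fits that left out a library (horse serum 3, 4 or 6 or any STEM library, adjusted p from 0.0508 to 0.101). It was not called with DESeq2 (0.0644), limma-voom (0.0565), total-count scaling (0.0573) or no filter on low counts (0.08) either, so the number of ligands called was 3 in most of these settings. Osm, Ctf2, Il27, Ebi3 and Il31 did not exceed 3 counts in any library.

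The log2 fold changes of the 3 receptor chains lay between -0.15 and 0.07, and 1 of them passed the test. Lifr (ENSMUSG00000054263, chromosome 15, 7090614 to 7197489) encodes the receptor chain that binds LIF. It was between 177 and 195 CPM with horse serum (median 192) and between 159 and 176 CPM with STEM (median 173). All 6 STEM libraries were below every horse serum library, although the nearest values were less than 1 CPM apart, and STEM library 10 was the lowest. The mean fell from 190 ± 6.57 CPM to 171 ± 6.21 CPM (SD, n = 6 each), a log2 fold change of -0.15 (SE 0.040, adjusted p = 0.0102 in edgeR, exact permutation test, two-sided, p = 0.00216). It was the same size without library 6 (-0.15, adjusted p = 0.00276). With libraries scaled by total counts only, the groups overlapped (exact permutation test, two-sided, p = 0.0108).

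Il6st (ENSMUSG00000021756, chromosome 13, 112464070 to 112510086), the gene of the shared gp130 chain, was between 242 and 278 CPM with horse serum (median 264) and between 226 and 273 CPM with STEM (median 248). Library 6 held the lowest horse serum value, below 5 of the 6 STEM libraries. The log2 fold change was -0.09 (SE 0.049, adjusted p = 0.164 in edgeR) and, without library 6, -0.11 (SE 0.042, adjusted p = 0.0287). The groups overlapped with and without library 6, since STEM library 10 lay at 273 CPM.

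Osmr (ENSMUSG00000022146, chromosome 15, 6813577 to 6874969) encodes the chain that pairs with gp130 for oncostatin M and lies 216 kb from Lifr. Its values were 60.9, 63.3, 70.7, 68.2 and 69.0 CPM in horse serum libraries 1 to 5, 93.1 CPM in library 6, and between 67.4 and 82.4 CPM with STEM (median 74.7). Library 6 exceeded every STEM library, and libraries 1 and 2 were below all of them. The log2 fold change was 0.07 (SE 0.091, 95% interval -0.10 to 0.25, adjusted p = 0.554 in edgeR) with library 6 and 0.17 (SE 0.057, adjusted p = 0.0182) without it.

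Of the 7 tested genes among 10 receptor symbols, 3 were called, all lower with STEM (42.9% beside 36.4% of all genes, of which 17.4% lower, median log2 fold change -0.15 beside 0.01). Without library 6 the number was 6 (2 higher and 4 lower), beside 50.8% of all genes. The other genes called with all libraries were those of the alpha receptors for IL-6 and IL-11. Il6ra went from 4.44 ± 0.555 CPM to 2.59 ± 0.237 CPM (SD, n = 6 each), a log2 fold change of -0.77 (SE 0.12, adjusted p = 0.000156 in edgeR), without overlap. The ligand gene Il6 rose while its receptor gene Il6ra fell. Il11ra1 averaged 21.3 ± 5.38 CPM after horse serum and 14.5 ± 1.31 CPM after STEM, with a log2 fold change of -0.55 (adjusted p = 0.0203). This call was lost with limma-voom (0.0702) and without a filter on low counts (0.0714). Library 6 had 10.5 CPM of Il11ra1, below all 11 other libraries, and without it the log2 fold change was -0.69 (adjusted p = 9.55e-08). The Il11ra2 copies resemble Il11ra1, so reads could have been split between them in the counting, and none of the 3 listed exceeded 3 counts. Il31ra had no count.

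**Figure D3:**
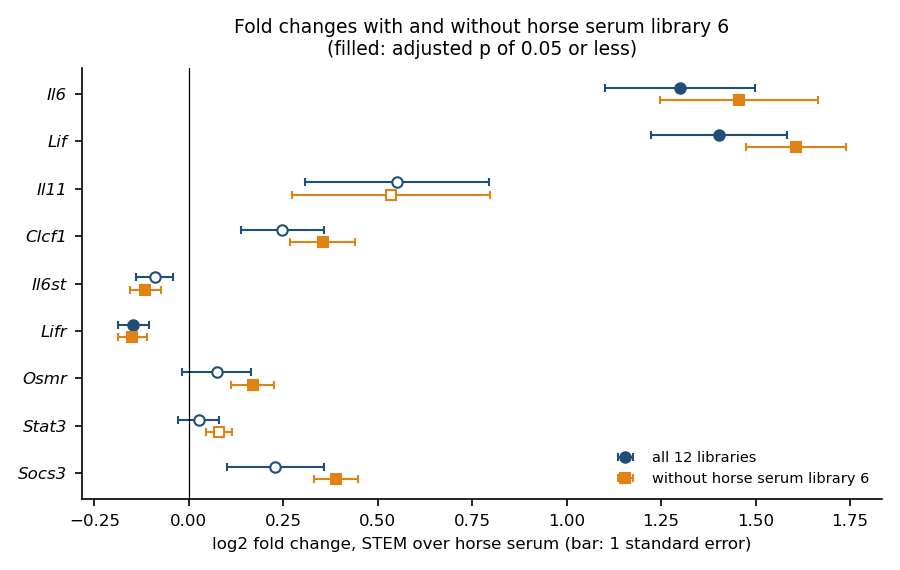
The x axis gives the log2 fold change of each member (y axis) with 1 standard error, STEM over horse serum, from all 12 libraries (blue circles) and without horse serum library 6 (orange squares). Filled symbols passed an adjusted p of 0.05: Il6, Lif and Lifr in both fits, and Clcf1, Il6st, Osmr and Socs3 when library 6 was left out.

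Stat3 (ENSMUSG00000004040, chromosome 11, 100885098 to 100939540), the transcription factor at the end of the pathway, was between 167 and 175 CPM in horse serum libraries 1 to 5, at 210 CPM in library 6, and between 176 and 190 CPM with STEM (median 179). Without library 6 the groups did not overlap. The log2 fold change was 0.03 (SE 0.054, 95% interval -0.08 to 0.13, adjusted p = 0.74 in edgeR), and 0.08 (SE 0.034, adjusted p = 0.0601) without library 6, where the exact permutation test of the mean log2 CPM gave p = 0.00433 (two-sided). With all 12 libraries the same exact test gave p = 0.652. Stat3 overlaps Stat5a, a gene of 422 to 887 counts on the opposite strand, and the sources used here do not give the strand setting of the counting.

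Socs3 (ENSMUSG00000053113, chromosome 11, 117966079 to 117970047), the feedback inhibitor induced by STAT3, had its highest value in library 6 and was called only without it. It had 40.9, 43.6, 47.1, 43.8 and 37.9 CPM in horse serum libraries 1 to 5 and 71.6 CPM in library 6. The STEM libraries had 56.1, 60.7, 55.1, 54.1, 57.7 and 50.8 CPM. The other horse serum libraries were all below the lowest STEM library. With all libraries the log2 fold change of 0.23 did not pass the test (SE 0.13, adjusted p = 0.178 in edgeR, exact permutation test, two-sided, p = 0.0866). Without library 6 it was 0.39 (SE 0.058, adjusted p = 1.55e-05), or 1.31-fold, and the exact permutation test gave p = 0.00216 (two-sided), the smallest that 6 against 5 allow.

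Levels of different members were compared per length as FPKM, the CPM divided by the length of all annotated exons of the gene in kb. With horse serum the order was Il6st (23.8 ± 1.12 FPKM), Stat3 (18.7 ± 1.67), Lifr (17.6 ± 0.609), Socs3 (16.4 ± 4.23), Osmr (5.85 ± 0.950), Clcf1 (2.98 ± 0.561), Lif (1.17 ± 0.386), Il11 (0.422 ± 0.0918) and Il6 (0.354 ± 0.0774 FPKM; SD, n = 6). The ranges of neighbors overlapped among the first 4 genes and between Il11 and Il6, and were apart elsewhere. With STEM, Socs3 stood second at 19.3 ± 1.16 FPKM and Il6 (0.877 ± 0.198 FPKM) stood above Il11 (0.612 ± 0.223 FPKM), each with a range that overlapped its neighbor. Lif, at 3.14 ± 0.523 FPKM with STEM, reached into the range of Clcf1 (3.55 ± 0.286 FPKM), which with horse serum had been apart from it. The summed FPKM of the 4 ligands was 4.92 ± 0.993 with horse serum and 8.17 ± 0.672 with STEM, and the mean share of Lif in this sum was 23.3% and 38.3%. When the longest transcript set the length, the order with horse serum did not change, and with STEM Stat3 stood first at 30.0 FPKM. The level of Osmr depends on this choice most, at 5.85 FPKM on all exons and 12.9 FPKM on the longest transcript with horse serum.

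**Figure D4:**
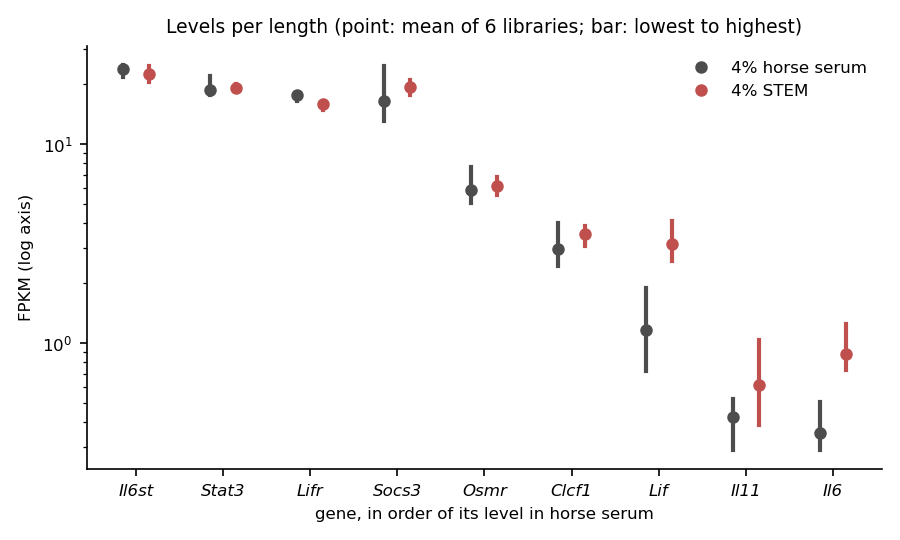
The y axis (log scale) gives FPKM of each member, with points for the mean of 6 libraries and bars from the lowest to the highest library. Receptor and signaling genes lie above 5 FPKM and the ligand genes below 5 FPKM in every library, and Lif and Il6 are the genes whose bars for STEM (red) lie wholly above those for horse serum (grey).

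Other genes of the pathway were examined in 4 further lists, which were chosen with earlier results of these data known. Over all 6 lists, 34 of 75 distinct genes tested were called, beside 36.4% of all genes, and 43 without library 6, beside 50.8% of all genes. Of 10 tested JAK kinases and STAT factors, 3 were called (30.0%, median log2 fold change -0.02), 2 higher and 1 lower, and these numbers were the same without library 6. Jak2, a kinase that docks on gp130, averaged 48.4 ± 3.08 CPM after horse serum and 58.3 ± 2.77 CPM after STEM (SD, n = 6 each, log2 fold change 0.27, adjusted p = 0.000956 in edgeR). Stat5a rose by 0.23 on the log2 scale (adjusted p = 0.00498), and Stat2, a factor of the interferon response, fell by 0.48 (adjusted p = 3.54e-05). Stat4 had no count in any library.

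Of 17 tested inhibitors and adaptors of the pathway, 8 were called (47.1% beside 36.4% of all genes, median log2 fold change 0.00), 3 higher and 5 lower. Without library 6 the number was 10 (5 higher and 5 lower, 58.8% beside 50.8% of all genes). It was 5 without horse serum library 2 and 5 without a filter on low counts. Ptpn11, which encodes the phosphatase SHP2 that competes with SOCS3 for gp130, averaged 199 ± 6.22 CPM after horse serum and 234 ± 6.20 CPM after STEM (SD, n = 6 each), a log2 fold change of 0.23 (adjusted p = 0.000235 in edgeR). Gab1, an adaptor that links the receptor to the ERK and PI3K pathways, fell by 0.41 on the log2 scale (adjusted p = 0.000434), and Pias1, which encodes a SUMO ligase, fell by 0.23 (adjusted p = 0.00133). Each of these 3 genes had groups without overlap.

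Of 23 tested genes known to be induced by STAT3, 8 were called (34.8%, median log2 fold change -0.02), 2 higher and 6 lower, beside 36.4% called among all genes. Ccnd1, the gene of cyclin D1, fell from 64.5 ± 12.6 CPM to 17.5 ± 1.51 CPM (SD, n = 6 each), a log2 fold change of -1.88 (SE 0.12, adjusted p = 9.48e-08 in edgeR). Of the myoblast markers summed above, Top2a (log2 fold change -0.65), Mki67 (-0.62) and Myf5 (-0.42) were called lower with STEM as well. Pax7 (-0.04), Myod1 (0.03) and Ccnb1 (-0.14) were not called. The part of dividing cells in the fall of Ccnd1 was not tested. Pim1, a kinase gene, fell from 39.4 ± 2.30 CPM to 25.9 ± 1.99 CPM (log2 fold change -0.60, adjusted p = 4.67e-06). Klf4, a transcription factor gene, rose from 7.65 ± 0.636 CPM to 13.3 ± 1.72 CPM (log2 fold change 0.79, adjusted p = 2e-05). The acute-phase genes Lcn2, Hp and Lrg1 had no count in any library, and Icam1, Saa3 and A2m did not exceed 3 counts. Without library 6, 12 of the 23 genes were called, 3 higher and 9 lower (52.2% beside 50.8% of all genes).

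Of 15 tested genes that regulate Il6 transcription or its mRNA, 8 were called (53.3% beside 36.4% of all genes, median log2 fold change 0.03), 5 higher and 3 lower. Without library 6 the number was 10 (6 higher and 4 lower, 66.7% beside 50.8% of all genes). Atf3, a stress-induced factor of the ATF/AP-1 group, averaged 4.28 ± 0.830 CPM after horse serum and 12.04 ± 2.73 CPM after STEM (SD, n = 6 each), a log2 fold change of 1.49 (SE 0.16, adjusted p = 8.94e-06 in edgeR). Jun, a subunit of AP-1, rose by 0.48 on the log2 scale (adjusted p = 2.81e-05). Nfkbiz, which encodes a nuclear I-kB protein that promotes Il6 transcription, fell by 0.42 (adjusted p = 0.0007). The groups did not overlap for any of these 3 genes. Egr1, an immediate-early factor named after its values were seen, rose from 10.5 ± 2.71 CPM to 20.2 ± 4.97 CPM (log2 fold change 0.94, adjusted p = 0.00243), with groups that overlapped.

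**Figure D5:**
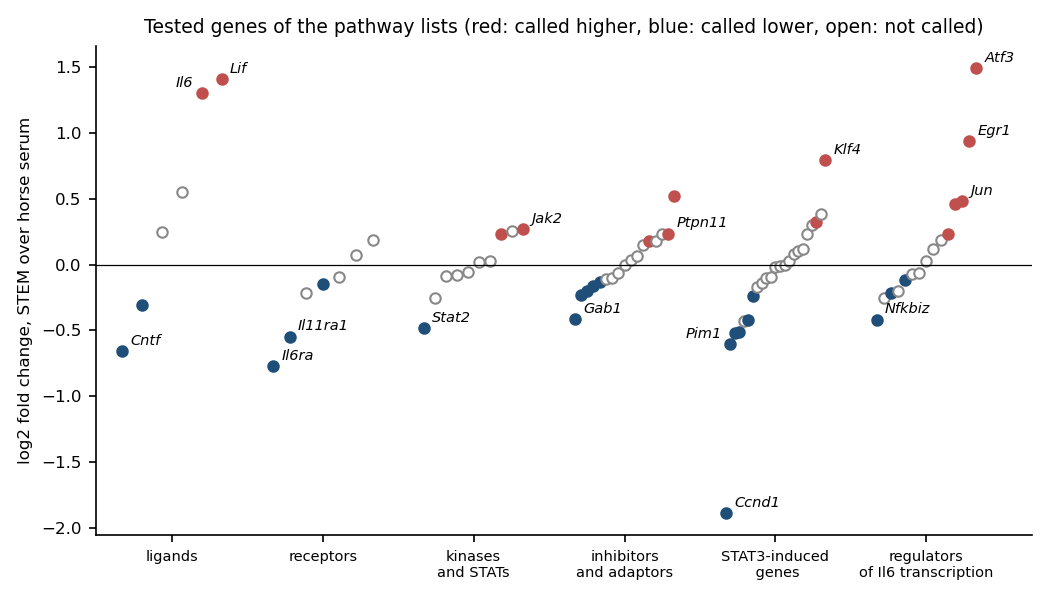
Each point is 1 tested gene of a pathway list, and the y axis gives its log2 fold change, STEM over horse serum, from all 12 libraries (red called higher, blue called lower, open not called). Lif and Il6 lie at the top of the ligands, Il6ra at the bottom of the receptors, and Ccnd1 lies lowest of all at -1.88.

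The genes whose log2 CPM followed Lif most closely over the 12 libraries were Traf3 (Pearson's r = 0.992), Pxdn (0.987) and Col18a1 (0.987), and among those closest to Il6 were Smim3 (0.969) and Golim4 (0.959). These r are descriptions over 12 libraries of 2 groups, so a difference between the groups enters each of them. After the group means were taken out, r with Lif was 0.962 for Traf3, 0.918 for Pxdn and 0.920 for Col18a1, in each case with horse serum library 6 and its high value among the points. With Il6 it was lower, at 0.788 for Smim3 and 0.720 for Golim4. Traf3, an adaptor that restrains noncanonical NF-kB signaling, averaged 27.9 ± 3.97 CPM after horse serum and 41.4 ± 3.09 CPM after STEM (SD, n = 6 each, log2 fold change 0.57, adjusted p = 0.00013 in edgeR). Smim3 was at 24.6 ± 2.16 CPM and 36.4 ± 3.40 CPM (log2 fold change 0.57, adjusted p = 4e-05). The genes closest to Socs3 were Pfn1 (0.951), Pdgfa (0.950) and Ints6 (0.949), and none of them was called with all 12 libraries (adjusted p between 0.104 and 0.329 in edgeR). Without library 6 all 3 were called higher, with log2 fold changes of 0.15 for Pfn1 (adjusted p = 0.00111), 0.37 for Pdgfa (1.67e-06) and 0.20 for Ints6 (0.00109). Library 6 was the highest of the horse serum libraries for all 3, with 365 CPM of Pfn1, the gene of the actin-binding protein profilin-1, against a mean of 282 CPM in libraries 1 to 5.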

How the data were processed

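The authors removed ribosomal RNA, made 12 strand-marked libraries of C2C12 myotube RNA, sequenced both fragment ends and deposited raw read counts per Ensembl gene for GRCm38. The submitters' processing notes name STAR 2.7.3a, featureCounts 1.6.3 and DESeq2 1.26.0, and the strand setting and annotation release are not given in the sources used here. All 12 columns were assigned by their titles.

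Symbols, positions and exon lengths came from GENCODE M21 (GRCm38), which held 55227 of the 55487 listed genes. Genes were tested with edgeR 4.0.16 in R 4.3.3 (TMM, filterByExpr, robust glmQLFit, glmQLFTest), adjusted by Benjamini-Hochberg over 14175 genes and called at 0.05. CPM used TMM-scaled totals of the tested genes, and log2 CPM a prior count of 2. Exact permutation tests were two-sided. Library pairs within a group all differed by more than sampling noise (chi-square per degree of freedom from 3.63 to 77.7). Alternatives were DESeq2's size factors, upper quartile and total-count scaling, no filter or 10 counts in every library, DESeq2 1.42.0, limma-voom (limma 3.58.1), a threshold of 0.01 and leaving out each library. The edgeR, DESeq2 and limma fits were tested on simulated data.

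The members and lists were chosen with earlier results of these data known. Beside the members, the text names at most 3 called genes per pathway list with the lowest p-values, list genes at or below 3 counts, the 3 genes most alike to Il6, Lif and Socs3, and the leading or absent genes of each marker list, and some results are not reported here. Promoters printed stop before the annotated gene. The motifs and DESeq2 or limma-voom without library 6 were added after the data were seen. The list genes Egr1 and Csf1r were also picked out by name, and the myoblast markers given singly, after that. Floors cover counting error only.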

Additional observations from a re-analysis of the deposited data

Results flagged for a closer look

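Within a group of 6 libraries, a value was marked when its gap to the nearest other library was a large part of the whole range (Dixon's test at the 95% level). Of 68 groups of values for 34 genes, 15 were marked, and chance marks about 1 in 20. Horse serum library 6 held 11 of the 15. Of these 11, 5 are in genes chosen for following Il6, Lif or Socs3 over the same libraries (Smim3, Pxdn, Pfn1, Pdgfa and Ints6). They are not independent of the values of those members, so the number is not to be read against chance. It was highest in its group for Il6 (1.23 CPM, others 0.707 to 0.846), Osmr (93.1 CPM, others 60.9 to 70.7), Stat3 (210 CPM, others 167 to 175) and Socs3 (71.6 CPM, others 37.9 to 47.1). It was also highest for Ptpn11 (210 CPM), Smim3 (28.6 CPM), Pxdn (311 CPM), Pfn1 (365 CPM), Pdgfa (79.4 CPM) and Ints6 (66.3 CPM). For Il11ra1 it was lowest, at 10.5 CPM against 22.9 to 24.5 CPM in the other horse serum libraries.

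The other 4 marks fell in different libraries. STEM library 7 was highest for Il6 (3.02 CPM, others 1.78 to 2.22), and STEM library 11 was highest for Il11 (2.14 CPM, others 0.808 to 1.30). STEM library 10 was lowest for Lifr (159 CPM, others 171 to 176). Horse serum library 1 was highest for Pias1 (39.5 CPM, others 36.0 to 37.3).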

How the results depend on the processing

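Il6, Lif and Lifr were called in the same direction in all 7 other fits of the 12 libraries and with each library left out, with log2 fold changes from 1.15 to 1.46 for Il6, 1.30 to 1.61 for Lif and -0.17 to -0.13 for Lifr. Among the 12 libraries left out in turn, horse serum library 6 was the only one that altered the number of members called, which ranged from 3 to 7 over the libraries left out (2 to 5 higher, 1 to 2 lower), with 6 receptor genes called in place of 3 (range 3 to 6). DESeq2 and limma-voom without that library, added after the data were seen, also called 7 members, 5 higher and 2 lower, and 6 receptors. Calls rose over all tested genes too, from 36.4% to 50.8% in edgeR without library 6. With DESeq2 and limma-voom, leaving library 6 out also raised the number of genes called. The larger numbers of members and receptors are to be read beside that general rise. With any of the other 11 libraries left out, adjusted p was 0.0686 to 0.188 for Clcf1, 0.0631 to 0.323 for Il6st, 0.441 to 0.81 for Osmr and 0.175 to 0.324 for Socs3, and in the 7 other fits 0.0855 to 0.12, 0.0936 to 0.279, 0.523 to 0.666 and 0.122 to 0.366. Il11 and Stat3 were called in none of these fits. At an adjusted p of 0.01, 3266 genes were called (1676 higher, 1590 lower), 0 members were lower since Lifr missed it, 2 members and 21 list genes passed, with 2 ligands, 1 receptor and 3 inhibitors or adaptors. Without a filter on low counts 2 ligands and 5 inhibitors or adaptors were called, and the latter ranged from 5 to 10 over the libraries left out, with 5 without horse serum library 2. Genes called ranged from 4459 to 7245 over the fits that left out a library. Other scalings moved the median of all genes by at most 0.02 in log2. Il11ra1 was not called with limma-voom (adjusted p = 0.0702) or without the filter (0.0714), nor Ctf1 without the filter (0.0662). Il6 and Il11 had 10 counts in their lowest library, which limits their precision. No paired analysis was possible because the library numbers are not shared between the groups.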
